A study of Mus musculus with 6 samples.

Results

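The NDRG (N-myc downstream-regulated gene) family consists of the paralogues Ndrg1, Ndrg2, Ndrg3 and Ndrg4, and its members were taken as the rows of the deposited gene table whose symbol is one of these names. All 4 genes had a row of their own, out of 51482 measurements in the table, and all 4 were among the 14575 that the authors tested. The cells were wild-type mouse embryonic fibroblasts (MEFs) immortalised with SV40, a virus whose large T protein disables growth checkpoints. RNA of 3 cultures at 21% oxygen (normoxia) and 3 at 0.5% oxygen (hypoxia), each after 16 h, was sequenced from poly-A selected, stranded libraries. Both groups share the wild-type genotype and the SV40 immortalisation, and no source used here says whether the line is 1 clone.

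The table holds 1 FPKM value per gene and group. FPKM counts fragments per length of transcript and per size of the library, so that levels of different genes can be set side by side. The authors combined the 3 replicates into these values, which therefore carry no SD, and the depth of the libraries is unknown. A gene is called here where the q-value of the authors' deposited table, from their Cuffdiff test, is below 0.05. No test between single samples could be run.

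NDRG proteins are built on an alpha/beta hydrolase fold but are not known to act as hydrolases. The founding member NDRG1 is a widely used marker of low oxygen. Its gene is a target of the hypoxia-inducible factors (HIFs) and is repressed by MYC proteins, its product is phosphorylated by SGK and GSK3 kinases, and its loss causes a demyelinating neuropathy. NDRG2 is abundant in astrocytes, and NDRG4 in brain and heart. NDRG3 has been described as an oxygen-regulated protein: when oxygen is present the prolyl hydroxylase encoded by Egln1 marks it for degradation through the VHL ubiquitin ligase, and in low oxygen it binds lactate and promotes RAF-ERK signalling.

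All 4 paralogues had a higher value in hypoxia, by amounts that ranged from 1.23-fold to 12.8-fold. Ndrg1, Ndrg2 and Ndrg3 rose, and Ndrg4 did not pass the authors' test. Thus 3 of 4 members were called higher and 0 lower, against 28.9% of all tested measurements called higher, 29% called lower and 57.9% called in either direction. The same 3 passed at q below 0.01, as did 48.7% of all tested. By at least 2-fold, 2 of 4 were higher and 0 lower, where the background was 9.03% higher and 9.87% lower. With 4 members, and with called measurements this common, the count alone says little, and the sizes of the changes carry more.

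Ndrg1 (ENSMUSG00000005125; chromosome 15, 66929318 to 66969640, minus strand, GRCm38) stood at 72.8 FPKM under normoxia and at 930 FPKM under hypoxia. This is a 12.8-fold rise, a log2 fold change of 3.68 with q = 0.000139 in the authors' deposited table. That q is the smallest in the table and is shared by 5148 tested measurements, so it does not rank the members. Ndrg1 was the 33rd largest rise among 3981 measurements that were called higher, reached at least 1 FPKM in hypoxia and were above 0 in both groups. Its level was high for a rise of this size. It moved from rank 1388 to rank 102 of all tested measurements by FPKM, and none of the 101 measurements above it in hypoxia had as large a fold.

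Ndrg2 (ENSMUSG00000004558; chromosome 14, 51905271 to 51914158, minus strand) had the lowest level of the family in normoxia, at 7.95 FPKM. In hypoxia it was at 43.6 FPKM, a 5.48-fold rise with a log2 fold change of 2.45 (q = 0.000139 in the authors' deposited table). It was the 172nd largest rise in the same order.

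Ndrg3 (ENSMUSG00000027634; chromosome 2, 156927345 to 156992056, minus strand) rose from 24.9 to 34.3 FPKM. The rise was 1.38-fold, a log2 fold change of 0.46, and carried the same q of 0.000139 in the authors' deposited table. It ranked 2989th among the called rises, so that a large majority of these were of greater size. Ndrg4 (ENSMUSG00000036564; chromosome 8, 95676980 to 95715119, plus strand) had 9.60 FPKM at 21% oxygen and 11.8 FPKM at 0.5% oxygen, a ratio of 1.23 that was not called (p = 0.0328, q = 0.0562 in the authors' deposited table). Its q lay just above the threshold, which does not show that its level was the same in both groups.

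**Figure D1:**
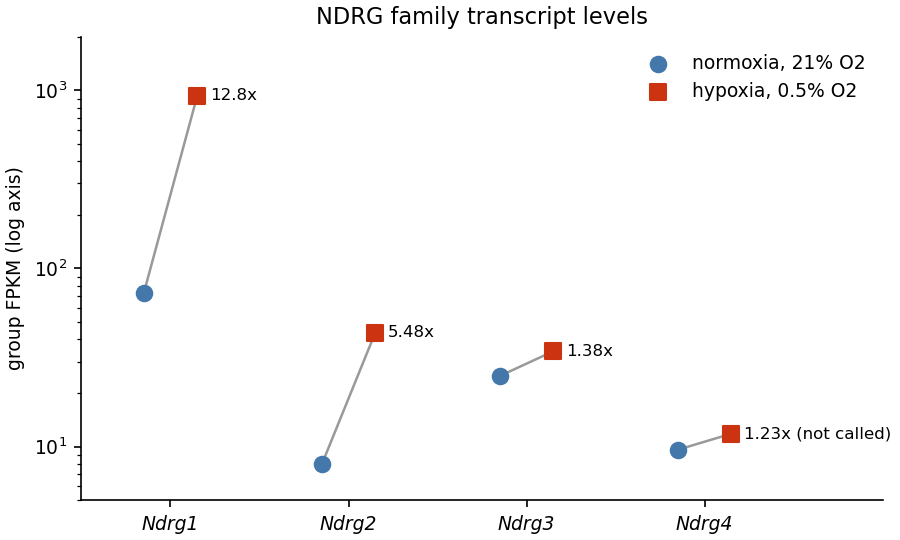
Group FPKM (log axis) of the 4 NDRG genes in normoxia (circles) and hypoxia (squares), 1 value per group with no error bar because the authors combined 3 replicates; the labels give the ratio of hypoxia to normoxia. Ndrg1 lies above the other members in both groups and climbs to 930 FPKM, and the line of Ndrg2 crosses the levels of Ndrg3 and Ndrg4.

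**Figure D2:**
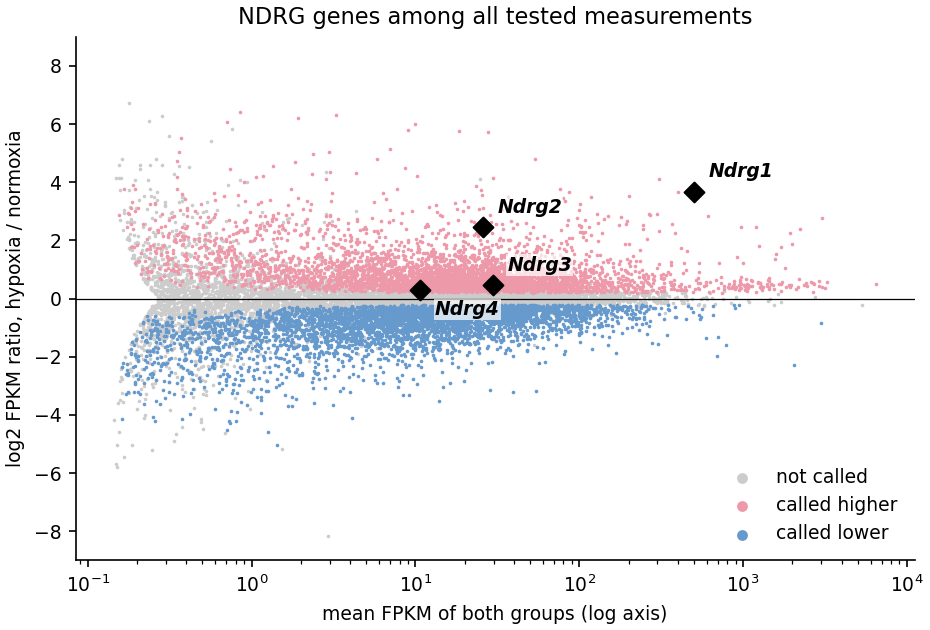
Log2 FPKM ratio of hypoxia over normoxia against the mean FPKM of both groups (log axis) for the tested measurements above 0 in both groups, coloured by the authors' calls, with the NDRG genes as black diamonds. Ndrg1, at a log2 ratio of 3.68, lies apart at the upper right, Ndrg2 lies among the larger rises, and Ndrg3 and Ndrg4 lie close to 0.

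The order of the paralogues by FPKM differed between the groups. In normoxia it was Ndrg1, Ndrg3, Ndrg4 and Ndrg2, and in hypoxia Ndrg1, Ndrg2, Ndrg3 and Ndrg4. Ndrg1 was 2.92 times the level of Ndrg3, the next member, in normoxia, and 21.3 times the level of Ndrg2, the next member, in hypoxia. The neighbours in this order that lay closest were Ndrg4 and Ndrg2 in normoxia (a ratio of 1.21) and Ndrg2 and Ndrg3 in hypoxia (a ratio of 1.27). Whether these neighbours differ beyond the spread between replicates could not be tested with 1 value per group.

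Summed over the family, the level went from 115 to 1020 FPKM. Ndrg1 made up 63.1% of this sum in normoxia and 91.2% in hypoxia, and 94.8% of the gain of 905 FPKM was its own. The share of Ndrg3 went from 21.6% to 3.36% although its own level rose, that of Ndrg4 from 8.33% to 1.16%, and that of Ndrg2 from 6.90% to 4.27%. The fold of Ndrg1 was 2.33 times that of Ndrg2 and 9.29 times that of Ndrg3, and these differences between members were not tested.

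**Figure D3:**
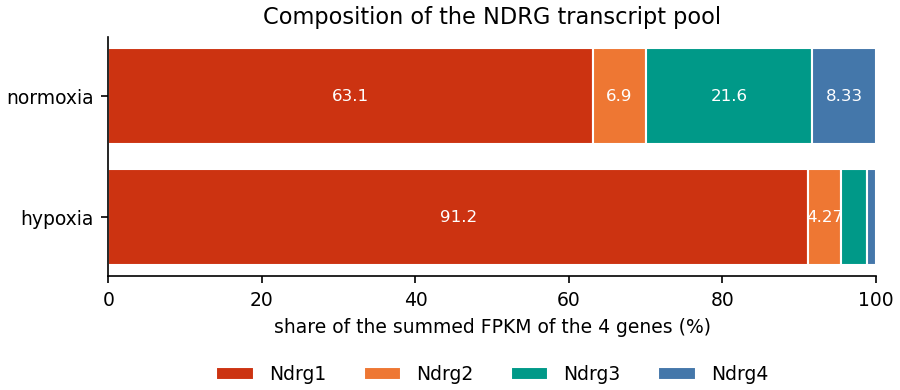
Share of the summed FPKM of the 4 NDRG genes held by each gene in normoxia (upper bar) and hypoxia (lower bar), in percent. The Ndrg1 segment widens from 63.1% to 91.2% while those of the other 3 genes narrow.

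Only 20 tested measurements gained more FPKM than Ndrg1. They included glycolysis genes, such as Ldha (a gain of 3011 FPKM) and Pgk1 (1674 FPKM), and genes of ribosomal proteins, such as Rpl41 (901 FPKM). Bsg, the gene of basigin, a chaperone of lactate transporters, gained most (4546 FPKM, 6.86-fold). No fold among these 20 reached that of Ndrg1, and the largest was that of Fam162a (7.21-fold, to 1071 FPKM). They started from levels of at least 149 FPKM, against 72.8 FPKM for Ndrg1.

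Over the 2 groups, the genes most like Ndrg1 are those with the nearest folds. Just above it stood the pseudogene Ak3l2-ps (13.6-fold), the small MAF factor gene Maff (13.6-fold, 10.5 to 142 FPKM) and Ak4, the gene of a mitochondrial adenylate kinase (13.3-fold, 3.50 to 46.5 FPKM). Just below it stood Ero1l, the gene of an endoplasmic reticulum oxidase (12.7-fold, 58.8 to 744 FPKM), Ankrd37 (12.5-fold) and Atp7b, the gene of a copper transporter (12.5-fold, 0.939 to 11.7 FPKM). Of these 6, Ero1l was the only one whose level was near that of Ndrg1 in both groups.

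The measurement of each member was checked for sequence that other genes share. Of the 50-base stretches of the principal Ndrg1 transcript (16 exons, 2889 bases), 0 occur in a transcript of another family member, and the same holds for Ndrg2, Ndrg3 and Ndrg4. Reads of that length from the abundant Ndrg1 transcript thus have no exact match in the annotated transcripts of its paralogues. For Ndrg1 itself, 415 of 2840 stretches (14.6%) also occur, on either strand, in its antisense genes Gm17035 and Gm2895. For Ndrg2 and Ndrg4, 0 such stretches occur in any other gene. For Ndrg3, 4.38% also occur in the pseudogene Gm14278, which is listed at 0 in both groups.

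Ndrg1 shares sequence with antisense genes on the plus strand. The exons of Gm17035 (chromosome 15, 66929607 to 66931107) lie wholly within Ndrg1 exons, all 419 bases of them. Its value went from 0.263 to 5.39 FPKM, a difference that the authors did not call (q = 0.0733 in the authors' deposited table). Gm2895, annotated as sharing a bidirectional promoter, has 137 exonic bases in common with Ndrg1. It was at 0.0435 and 0.0950 FPKM and was not tested by the authors. The locus that the authors deposited for Ndrg1 runs from 66929321 to 67013039, beyond its annotated span and to the annotated end of Gm2895. For the other members the deposited locus equals the annotated span. The libraries were stranded, but whether the counting used the strand is not stated in any source used here. Without strand, reads of Ndrg1 and of Gm17035 cannot be told apart. In hypoxia Gm17035 had 5.39 FPKM beside 930 FPKM for Ndrg1.

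Promoter windows, 250 bases before to 50 after an annotated start, were found in RefSeq (GRCm38.p6) for 3 of the 4 members, not for Ndrg1: 3 windows for Ndrg2, 2 for Ndrg3 and 4 for Ndrg4. They were searched on both strands for ACGTG and GCGTG, the core letters to which HIFs bind. At least 1 match was present in 5 of these 9 windows, and in 43.8% of the 32851 windows of the same length in the table. ACGTG alone is present in 19.6% of them and GCGTG in 32.4%. The palindrome CACGTG, to which MYC-MAX dimers and clock factors bind, contains ACGTG on both strands and is present in 7.15%. The windows below show starts of the member that rose 5.48-fold, of the one that rose 1.38-fold and of the one that was not called. Not all 9 are printed. For each member the window with the most matches is shown, and for Ndrg2 also 1 without a match. They are written 5′ to 3′ along the gene with matches in capitals, where CACGC and CACGT are matches on the opposite strand. They lie at chr14:51913439-51913738 and chr14:51913955-51914254 (Ndrg2, minus strand), chr2:156991654-156991953 (Ndrg3, minus strand) and chr8:95677513-95677812 (Ndrg4, plus strand).
Ndrg2 middle start: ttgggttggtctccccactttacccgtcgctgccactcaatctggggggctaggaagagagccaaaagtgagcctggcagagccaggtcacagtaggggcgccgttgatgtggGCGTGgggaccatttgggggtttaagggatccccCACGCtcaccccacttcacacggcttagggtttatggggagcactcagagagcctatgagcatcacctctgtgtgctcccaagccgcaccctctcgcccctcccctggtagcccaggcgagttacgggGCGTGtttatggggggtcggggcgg
Ndrg2 upstream start: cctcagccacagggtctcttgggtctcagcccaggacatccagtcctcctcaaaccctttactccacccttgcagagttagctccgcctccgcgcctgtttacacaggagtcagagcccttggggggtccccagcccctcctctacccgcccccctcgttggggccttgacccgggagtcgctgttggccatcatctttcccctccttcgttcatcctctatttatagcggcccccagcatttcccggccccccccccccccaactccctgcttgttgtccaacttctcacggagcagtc
Ndrg3 downstream start: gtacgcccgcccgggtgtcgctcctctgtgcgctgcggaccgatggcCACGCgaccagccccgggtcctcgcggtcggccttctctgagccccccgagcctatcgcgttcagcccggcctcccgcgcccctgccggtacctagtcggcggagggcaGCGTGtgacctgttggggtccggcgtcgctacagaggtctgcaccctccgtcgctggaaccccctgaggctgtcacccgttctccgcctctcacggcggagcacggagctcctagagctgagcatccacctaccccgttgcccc
Ndrg4 plus-strand start: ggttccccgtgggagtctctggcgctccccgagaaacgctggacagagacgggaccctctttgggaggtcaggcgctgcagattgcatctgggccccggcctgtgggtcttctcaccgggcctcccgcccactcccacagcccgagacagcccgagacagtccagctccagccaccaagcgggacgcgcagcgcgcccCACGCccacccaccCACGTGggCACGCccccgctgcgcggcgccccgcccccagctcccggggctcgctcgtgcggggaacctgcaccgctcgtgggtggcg
The middle Ndrg2 window holds 3 GCGTG matches, the first of which starts 137 bases before the start site, and the upstream window holds 0. The most downstream Ndrg2 window, chr14:51913280-51913579, overlaps the middle one and holds 1 GCGTG match, which both windows share. The Ndrg3 window shown holds 2 GCGTG matches, and the other Ndrg3 window holds 0. The Ndrg4 window shown holds 2 GCGTG matches and the only ACGTG matches of the 9 windows. Both ACGTG matches lie within 1 CACGTG palindrome 38 bases before the start site. Of the other Ndrg4 windows, which also lie on the plus strand, chr8:95676724-95677023 holds 1 GCGTG match and the rest hold 0. Counting the palindrome once, the Ndrg4 window shown and the middle Ndrg2 window each hold 3 separate matches. A match is a string of letters and does not show that a factor binds there.

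Genes of the regulation and known settings of the NDRG family, other HIF targets and other genes of its protein fold were counted from 8 lists, in which a few genes stand in more than 1 list. Over all tested measurements 28.9% were called higher and 29% lower, and the median log2 fold change was -0.013. The counts of each list stand beside these shares, and no list was tested against them. Rescaling both groups to an equal summed FPKM would lower every log2 value by 0.22 and turn the list medians between 0 and 0.22 negative. Among known HIF targets, 31 of 34 tested measurements rose and 2 fell, and the median log2 fold change was 2.47. The 1 measurement not called was a second row of Aldoa, at 2.33 and 5.29 FPKM (q = 0.472 in the authors' deposited table). In this list only Bhlhe41, the gene of a clock repressor (55.3-fold, to 17.6 FPKM), and Adm, the gene of adrenomedullin (54.5-fold, to 36.4 FPKM), had a larger fold than Ndrg1, and both remained far below it in level. The fold of Ndrg2 lay close to the list's median, with 18 measurements above it, and 32 lay above Ndrg3. Angptl4 and Pfkfb4 fell, by 1.80-fold and 1.52-fold.

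The list of HIF subunits, prolyl hydroxylases and the VHL ubiquitin ligase had 5 of 12 tested genes higher and 1 lower. Another 6 did not pass, and the median was 0.20. Egln1, which encodes the prolyl hydroxylase that targets NDRG3, rose from 35.9 to 173 FPKM (4.83-fold), and Vhl from 22.5 to 99.8 FPKM (4.44-fold). Both rose more than Ndrg3 itself, at 1.38-fold. Egln3 and Epas1, the gene of a HIF alpha subunit, rose 2.72-fold and 2.19-fold. Of the genes encoding HIF partners, Arnt rose from 35.6 to 70.8 FPKM (1.99-fold). Arnt2, at a much lower level, fell from 2.12 to 1.16 FPKM (1.83-fold). Hif1a shares a measurement with Snapc1 and another gene and is not counted.

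The lactate and RAF-ERK list, which holds the genes around the NDRG3 protein, had 9 of 13 tested genes higher and 2 lower, and its median was 0.55. Ldha, whose product makes lactate from pyruvate, reached 3719 FPKM (5.25-fold), and Slc16a3, the gene of a lactate exporter, from 137 to 335 FPKM (2.45-fold). Bsg rose to 5322 FPKM. Among the kinases, Map2k1 rose 2.54-fold to 122 FPKM, whereas Map2k2 fell 1.32-fold.

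Transcripts of the kinases that phosphorylate NDRG1 moved in both directions. In the list of SGK, AKT and GSK3 kinases 3 of 8 tested genes were higher, 3 were lower and 2 did not pass (median 0.098). Sgk1 and Sgk3 fell, from 8.76 to 3.77 FPKM (2.33-fold) and from 3.28 to 0.986 FPKM (3.32-fold), and Akt1 fell 1.87-fold from 124 FPKM. Gsk3b rose from 18.8 to 41.8 FPKM (2.22-fold). Among genes of mTORC2, the complex that activates SGK and AKT kinases, and its assembly factors, 2 of 9 were higher and 5 lower (median -0.36). Rictor, which encodes the subunit that defines the complex, rose 2.86-fold to 21.1 FPKM, and Deptor, the gene of an inhibitory subunit, 1.99-fold to 2.18 FPKM. Mapkap1, also specific to this complex, fell 1.68-fold to 23.3 FPKM, and the assembly factor gene Telo2 fell 1.73-fold.

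Mycn, the gene of the repressor that gives the family its name, and Myc fell, while Mycl and most partner genes rose. Mycn went from 6.11 to 2.86 FPKM (2.13-fold lower) and Myc from 15.2 to 10.5 FPKM (1.45-fold lower). Mycl went from 3.93 to 4.90 FPKM (1.24-fold higher, q = 0.0109 in the authors' deposited table), and this rise did not pass at q below 0.01. Of the 13 tested genes of MYC, MAX and partners, Mycn and Myc were the only 2 that fell, 9 rose and 2 were not called (median 0.32). The MYC antagonist genes Mxi1, Mnt and Mxd1 rose 4.01-fold, 2.69-fold and 2.13-fold, and Mxi1 reached 58.6 FPKM.

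Other genes of the alpha/beta hydrolase fold showed no common direction. Of 25 tested, 9 were higher, 4 were lower and 12 did not pass (median 0.0075). Abhd18 rose from 2.45 to 21.8 FPKM (8.90-fold), the only member with a larger fold than Ndrg2. Ppme1, the gene of a protein phosphatase methylesterase, rose from 32.8 to 140 FPKM (4.28-fold), and the epoxide hydrolase gene Ephx1 rose 2.37-fold. The imprinted gene Mest fell from 71.2 to 7.62 FPKM (9.34-fold). In normoxia its level was close to that of Ndrg1, and in hypoxia Ndrg1 was at 930 FPKM. Abhd12 and Abhd2 fell 1.45-fold and 1.37-fold.

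Among genes of endosomal recycling and cadherin-catenin adhesion, where NDRG1 is known to act, 3 of 9 tested were higher, 1 was lower and 5 did not pass (median 0.17). Rabac1, the gene of a Rab-binding protein reported to bind NDRG1, rose from 69.2 to 133 FPKM (1.92-fold). Lrp6, encoding a WNT coreceptor, and Rab5a rose 1.41-fold and 1.28-fold, and Cdh1, the gene of E-cadherin, fell 1.58-fold from 5.93 FPKM.

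**Figure D4:**
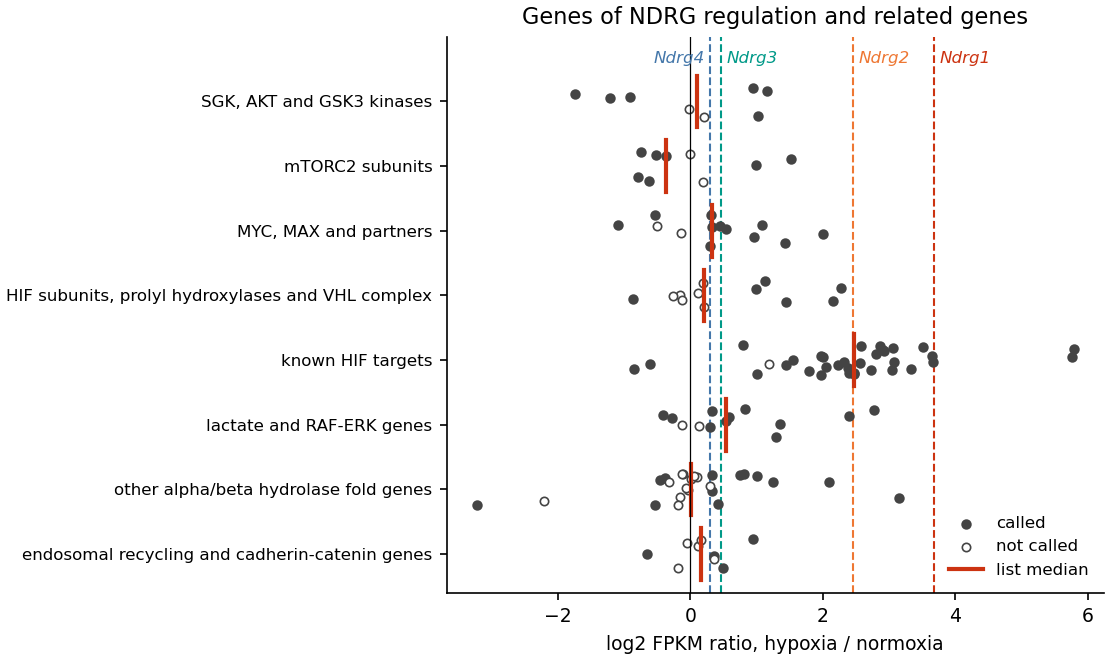
Log2 FPKM ratio of hypoxia over normoxia for the tested genes of 8 lists (points, filled where the authors called a difference), with the list medians (red bars) and the values of the 4 NDRG genes (dashed lines). Known HIF targets have a median of 2.47, close to the Ndrg2 line, and the other lists have medians between -0.36 and 0.55.

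The nearest tested genes on the chromosome that were called higher changed by less than 2-fold. Of 15 neighbouring measurements, up to 2 genes on each side of each member, 2 rose, 5 fell and 8 were not called. Among all tested measurements 28.9% rose and 29% fell. Beside Ndrg1, Wisp1, the gene of a secreted matricellular protein, fell from 37.2 to 11.4 FPKM (3.27-fold), and St3gal1, the gene of a sialyltransferase, rose 1.17-fold. Tg (0.472 and 0.721 FPKM) and the antisense gene Gm17035 (0.263 and 5.39 FPKM) were not called. The ratio of Gm17035, 20.5-fold, was the largest among the neighbours. Its exons lie wholly within Ndrg1 exons, so that without strand its value cannot be told apart from Ndrg1 reads. Beside Ndrg2, the joint measurement of Mettl17 and Slc39a2 (6.64 and 6.10 FPKM) and Arhgef40 (18.7 and 17.2 FPKM) were not called, and Zfp219 fell 1.35-fold.

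Beside Ndrg3, Dsn1, a kinetochore gene, rose from 30.3 to 39.5 FPKM, and 1110008F13Rik fell 1.62-fold. The pseudogene Gm14276 (10.2 and 8.85 FPKM) and 4930518I15Rik (0.812 and 0.340 FPKM) were not called. Beside Ndrg4, Setd6, a lysine methyltransferase gene, fell from 25.1 to 10.7 FPKM (2.34-fold), and Gins3, a DNA replication gene, fell 1.31-fold. Csnk2a2 (61.6 and 61.5 FPKM) and Cnot1 (70.6 and 98.9 FPKM) were not called.

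**Figure D5:**
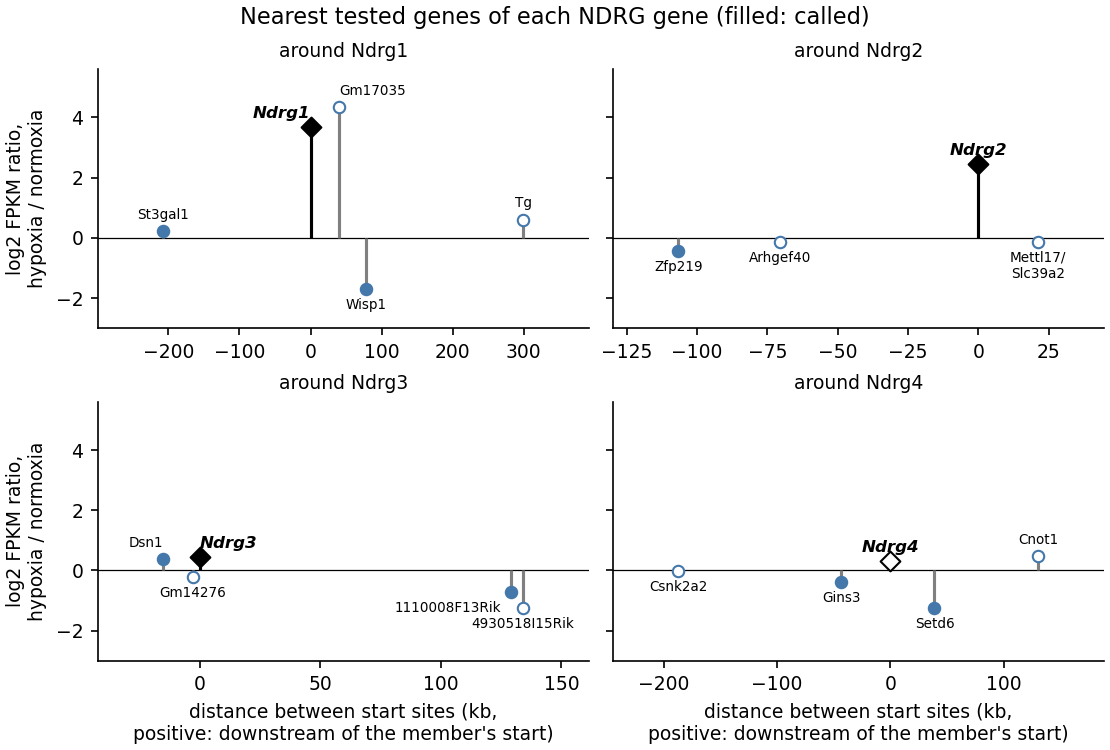
Log2 FPKM ratio of hypoxia over normoxia for each NDRG gene (diamond, at 0) and its nearest tested measurements (circles), against the distance between start sites in kb along the member's direction of transcription; filled symbols were called by the authors. Ndrg1 and Ndrg2 stand above their neighbours, except that the antisense gene Gm17035 has a larger ratio than Ndrg1. Gm17035 was not called, and its exons lie within Ndrg1 exons.

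The functional annotation deposited with the table differs among the members. It lists 27 terms for Ndrg1, 18 for Ndrg2, 15 for Ndrg4 and 4 for Ndrg3, and 1 term, cytoplasm, is common to all 4. Only Ndrg1 carries "cellular response to hypoxia". Of 88 tested measurements with that term, chosen after the annotation was seen, 45 rose and 19 fell. Among all tested measurements 28.9% rose and 29% fell. Within the term Ndrg1 had the fourth largest rise, after Rora (74.7-fold), Rgcc and Stc1. Those 3 reached between 1.42 and 13.6 FPKM in hypoxia. Ndrg2 and Ndrg4 share the terms brain development and negative regulation of smooth muscle cell proliferation.

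Markers of the labelled cell type and of the tissues where NDRG genes are best known were read from the same values. Of 11 fibroblast markers with a row of their own, 10 were at 1 FPKM or more in normoxia and 9 in hypoxia, and Lum was at 0.0123 and 0 FPKM. Of the 10 tested, 5 fell, 2 rose and 3 did not pass (median -0.32), where 29% of all tested measurements fell and 28.9% rose. The collagen genes Col3a1 and Col1a2 fell 1.80-fold and 1.53-fold, Pdgfrb 1.66-fold, and Thy1 1.51-fold, and Dcn fell from 28.8 to 24.0 FPKM. Vim, the gene of an intermediate filament, rose from 883 to 2249 FPKM and Fn1, the gene of fibronectin, from 448 to 649 FPKM, and Col1a1 was at 463 and 451 FPKM. The part of this shift in the rises of the NDRG genes was not tested. The summed level of 7 astrocyte markers went from 1.14 to 2.27 FPKM, with Aqp4 and S100b listed at 0 in both and Gfap at 0.102 and 0.0201 FPKM. Of the 3 tested, Slc1a3, the gene of a glutamate transporter, rose from 0.516 to 1.07 FPKM (2.07-fold). Slc1a2 (0.00714 and 0.558 FPKM) and Aldh1l1 (0.396 and 0.571 FPKM) did not pass. Their part in the rise of Ndrg2, from 7.95 to 43.6 FPKM, was not tested. The 7 neuronal markers with a row summed to 4.14 and 7.67 FPKM, nearly all from Map2, which rose from 3.86 to 7.42 FPKM, with Rbfox3 at 0.00316 and 0 FPKM. The 6 cardiomyocyte markers with a row summed to 5.53 and 6.12 FPKM, with Nppa listed at 0 in both. Tnnt2 rose from 2.31 to 4.60 FPKM and Myl7 fell from 3.20 to 1.52 FPKM. Among 7 markers of Schwann cells and oligodendrocytes, Pmp22 fell from 50.2 to 38.0 FPKM, Mbp rose from 9.99 to 13.7 FPKM and Mog was listed at 0. Of 5 epithelial markers 4 were at 1 FPKM or more in both groups. Krt18 rose from 313 to 443 FPKM, Krt8 fell from 28.3 to 10.1 FPKM, and the part of such cells in the results was not tested. The 5 immune markers summed to 1.33 and 2.27 FPKM. In such bulk values, a change in the number of cells of a type and a change in RNA per cell cannot be told apart.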

How the data were processed

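RNA was sequenced from 3 normoxic and 3 hypoxic cultures. The submitters' processing notes name HISAT2 2.1.0, Cuffdiff 2.2.1, StringTie 1.3.4d and Cufflinks, and build GRCm38 (per the submitters' processing notes). How libraries were scaled is not stated in any source used here. The authors deposited 1 table with an FPKM per gene and group, into which they combined replicates. It also gives their log2 fold change, p-value and q-value, and a test statistic, a score that was not used here, per the file headers. Those log2 values matched log2 ratios recomputed from the deposited FPKM.

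Repeats of a measurement in several rows were dropped (53207 rows, 51482 measurements). Calls are those of the authors at q below 0.05, adjusted by them over all tested measurements. Folds are ratios of group FPKM without a pseudocount. No replicate values were present, so that no test was run here. Where 1 measurement carries several gene names it was left out of the gene lists.

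The members, 8 pathway lists and 7 marker lists were chosen with earlier results of these data known. Named genes are the members, up to 4 called genes of each list with the largest change and up to 2 against the majority (or all where 5 or fewer were called), the 2 nearest tested genes on each side, and the 3 called measurements above and below Ndrg1 by fold. Others, such as those that gained more FPKM than Ndrg1, the annotation terms, and single markers, Mycl and Arnt, were chosen after their values were seen. Some genes that the rule names are not reported here. A planned comparison of protein sequences was not made. Alternatives were pseudocounts of 1 and 0.1, rescaled groups, q below 0.01, a 2-fold threshold, a filter of 1 FPKM and the inclusion of joint measurements. Coordinates are 1-based, from GENCODE M21 (GRCm38). Counting functions were tested on simulated data. Python 3.11.15, pandas 2.3.3 and numpy 2.4.6 were used.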

Additional observations from a re-analysis of the deposited data

How the results depend on the processing

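No paired analysis was possible because the deposited table holds group values only, and for the same reason no replicate could be left out. All FPKM summed to 547351 for normoxia and to 639357 for hypoxia, and rescaling both groups to an equal sum lowers every log2 fold change by 0.22. Under that scaling the log2 fold changes were 3.45 for Ndrg1, 2.23 for Ndrg2, 0.24 for Ndrg3 and 0.074 for Ndrg4. All 4 stayed above 0 under each scaling and pseudocount tried, but the authors' q-values cannot be recomputed after rescaling. Of the members, 3 were called higher also at q below 0.01, and 2 with a threshold of 2-fold. That threshold left 1 higher and 0 lower for mTORC2, 3 higher and 1 lower for MYC, MAX and partners, 4 higher and 0 lower for lactate and RAF-ERK genes, 4 higher and 1 lower for other alpha/beta hydrolase genes, and 0 in either direction for the endosomal list. It left 0 lower in the list of HIF subunits, prolyl hydroxylases and the VHL ubiquitin ligase, and 0 lower among the HIF targets. At q below 0.01, 8 lactate or RAF-ERK genes were higher and 1 was lower. In the list of MYC, MAX and partners 6 were then higher and 2 lower. Fewer measurements can pass the stricter thresholds. By at least 2-fold, 9.03% of all tested measurements were called higher and 9.87% lower. Among measurements of at least 5 FPKM in hypoxia Ndrg1 ranked 21st by fold.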
